A study of Mus musculus with 15 samples.

Results

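The 7 Cyp2c genes described here, Cyp2c29, Cyp2c37, Cyp2c38, Cyp2c39, Cyp2c50, Cyp2c54 and Cyp2c55, were taken by gene symbol from the 18510 rows of a table of liver gene expression, where each had 1 row. The table held 15 liver libraries from wild-type (WT) mice in 3 groups of 5. Ctrl mice ate a control diet, Alc mice were given alcohol in the diet, and Alc UA mice had alcohol and UA, a name the labels do not expand. The sources used here do not state strain, sex, age, diet length and dose, or time of day. Levels are in FPKM, a fragment count divided by transcript length and by the library's mapped fragments, so levels of different genes can be set side by side. Libraries are named by group and replicate number, and per-library values are listed from replicate 1 to replicate 5.

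CYP2C enzymes are microsomal cytochrome P450s of the endoplasmic reticulum. They receive electrons from P450 reductase, oxidise drugs and steroids, and convert arachidonic and linoleic acid to epoxides and hydroxy acids. In mouse liver their genes respond to the nuclear receptors CAR and PXR, depend on hepatocyte factors such as HNF4A, and several are transcribed mainly in pericentral hepatocytes. Cyp2c29, Cyp2c38 and Cyp2c39 encode closely related enzymes, of which CYP2C29 and CYP2C38 are arachidonate epoxygenases and CYP2C39 hydroxylates retinoic acid. CYP2C37, CYP2C50 and CYP2C54 form another set of related arachidonate and linoleate oxygenases. CYP2C55 is best known from the colon and is inducible in liver.

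The members lie in 1 gene cluster on chromosome 19, in which GENCODE M21 (GRCm38) orders Cyp2c29, Cyp2c38 and Cyp2c39 as neighbouring coding genes and Cyp2c37, Cyp2c54 and Cyp2c50 as another run. Each has an open reading frame of 1473 bases in GENCODE M21. Cyp2c37 and Cyp2c50 were identical at 96.1% of aligned coding bases, Cyp2c50 and Cyp2c54 at 95.2%, and Cyp2c37 and Cyp2c54 at 95.1%. Cyp2c38 and Cyp2c39 matched at 94.2%, and Cyp2c29 matched Cyp2c39 at 89.5% and Cyp2c38 at 89.1%. Cyp2c55 stood apart, at 77.5% or less to any other member. Such likeness bears on how reads are divided. Of all 100-base windows in the coding sequence, 11.6% of those in Cyp2c50, 9.32% in Cyp2c54 and 5.75% in Cyp2c37 occurred unchanged in a transcript of another Cyp2c gene, against 0% for Cyp2c29, Cyp2c38, Cyp2c39 and Cyp2c55. With 50-base windows the shares were 32.4%, 26.8% and 32.1% for the first 3, 13.7% for Cyp2c38, 13.1% for Cyp2c39, 0.632% for Cyp2c29 and 0% for Cyp2c55. The sources used here state neither read length nor the treatment of multi-mapped reads, so the division of reads among Cyp2c37, Cyp2c50 and Cyp2c54 is uncertain. For reads as short as 50 bases, the same holds for Cyp2c38 and Cyp2c39.

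The 250 bases before the start sites are shown because the members fall into the same sets there as in their coding sequence, and the members that rose with alcohol came from both sets. The sequences are RefSeq's on GRCm38.p6, read 5′ to 3′ on the strand of the gene, with CAAAGT in capitals, the opening letters of the HNF4 recognition sequence CAAAGTCCA. A sequence was available for 6 of the 7 members (Cyp2c54 is named only), and of 2 RefSeq start sites of Cyp2c39 the one shown is 40 bases from the start in GENCODE M21, the other being 163516 bases away.
Cyp2c29 (chr19:39286835-39287084, plus strand): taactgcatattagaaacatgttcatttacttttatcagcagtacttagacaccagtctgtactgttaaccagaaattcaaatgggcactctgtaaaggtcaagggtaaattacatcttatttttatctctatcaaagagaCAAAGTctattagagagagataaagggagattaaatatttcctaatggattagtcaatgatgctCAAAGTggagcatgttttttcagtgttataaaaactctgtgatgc
Cyp2c39 (chr19:39510572-39510821, plus strand): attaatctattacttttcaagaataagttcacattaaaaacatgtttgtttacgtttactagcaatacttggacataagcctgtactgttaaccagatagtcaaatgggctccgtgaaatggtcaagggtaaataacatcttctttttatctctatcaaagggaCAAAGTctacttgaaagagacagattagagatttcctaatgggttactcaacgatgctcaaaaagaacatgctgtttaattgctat
Cyp2c38 (chr19:39463076-39463325, minus strand): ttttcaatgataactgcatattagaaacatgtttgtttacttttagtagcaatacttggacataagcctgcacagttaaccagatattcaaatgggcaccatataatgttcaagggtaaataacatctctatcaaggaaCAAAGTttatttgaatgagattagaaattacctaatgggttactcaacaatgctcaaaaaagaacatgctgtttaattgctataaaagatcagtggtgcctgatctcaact
Cyp2c37 (chr19:39992174-39992423, plus strand): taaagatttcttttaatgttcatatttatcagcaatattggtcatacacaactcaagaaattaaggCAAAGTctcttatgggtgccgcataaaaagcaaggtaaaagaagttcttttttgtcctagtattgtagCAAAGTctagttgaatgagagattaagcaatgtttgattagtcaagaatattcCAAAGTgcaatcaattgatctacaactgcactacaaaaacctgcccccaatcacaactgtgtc
Cyp2c50 (chr19:40089429-40089678, plus strand): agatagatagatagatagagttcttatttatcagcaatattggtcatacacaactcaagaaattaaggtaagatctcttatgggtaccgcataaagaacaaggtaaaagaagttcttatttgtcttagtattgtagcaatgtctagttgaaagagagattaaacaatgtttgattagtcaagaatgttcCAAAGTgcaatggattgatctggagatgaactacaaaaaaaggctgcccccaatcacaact
Cyp2c55 (chr19:39006769-39007018, plus strand): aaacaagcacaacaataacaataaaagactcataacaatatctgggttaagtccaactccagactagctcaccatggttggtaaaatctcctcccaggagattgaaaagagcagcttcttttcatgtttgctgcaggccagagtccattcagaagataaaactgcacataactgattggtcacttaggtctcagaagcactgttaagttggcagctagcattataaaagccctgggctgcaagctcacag

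Cyp2c37 and Cyp2c50 were identical at 87.8% of aligned bases in this window, Cyp2c38 and Cyp2c39 at 89.6%, Cyp2c29 and Cyp2c39 at 81.9%, and Cyp2c55 at 63.3% or less to any of them. On both strands, CAAAGT was found before 6 of the 7 start sites of these genes, Cyp2c55 being the exception, and before 12.6% of 32851 mouse start sites. The copies of Cyp2c29, Cyp2c38 and Cyp2c39 lay 109, 111 and 86 bases before the start shown, and Cyp2c29 had another at 45. Cyp2c37 had copies at 184, 116 and 63 bases and Cyp2c50 had 1 at 61. The full CAAAGTCCA was found before 0 of the 7 (0.384% of all). The CAR and PXR half-site AGTTCA was found before 2 of the 7 (11.8% of all), at Cyp2c50 and at the Cyp2c39 start shown, and its DR4 direct repeat before 0 (0.00913% of all). TTATGTAA, which DBP and its relatives recognise, was found before 0 (0.819% of all). A match says only that these letters occur in the window, and related genes share letters by descent.

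Cyp2c50 had the highest mean of the members in every group, followed by Cyp2c37, Cyp2c29, Cyp2c54, Cyp2c38, Cyp2c39 and Cyp2c55 in that order. In Ctrl the means were 182 ± 83.7 FPKM for Cyp2c50, 105 ± 56.0 for Cyp2c37, 91.2 ± 31.7 for Cyp2c29, 80.8 ± 26.8 for Cyp2c54, 32.3 ± 18.4 for Cyp2c38, 1.40 ± 1.27 for Cyp2c39 and 0.304 ± 0.250 for Cyp2c55 (SD, n = 5). Cyp2c37, Cyp2c29 and Cyp2c54 were neighbours that did not differ beyond their spread, and Cyp2c50 was the highest in 5 of 5 Ctrl, 4 of 5 Alc and 4 of 5 Alc UA libraries. Summed over the 7 genes, the level was 493 ± 204 FPKM in Ctrl, 1207 ± 364 in Alc and 1132 ± 224 in Alc UA, which is 0.0785%, 0.212% and 0.192% of a library's FPKM. The lowest sum on alcohol, 572 in Alc 4, was below that of Ctrl 1, 822, while the other Ctrl libraries lay between 307 and 542.

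**Figure D1:**
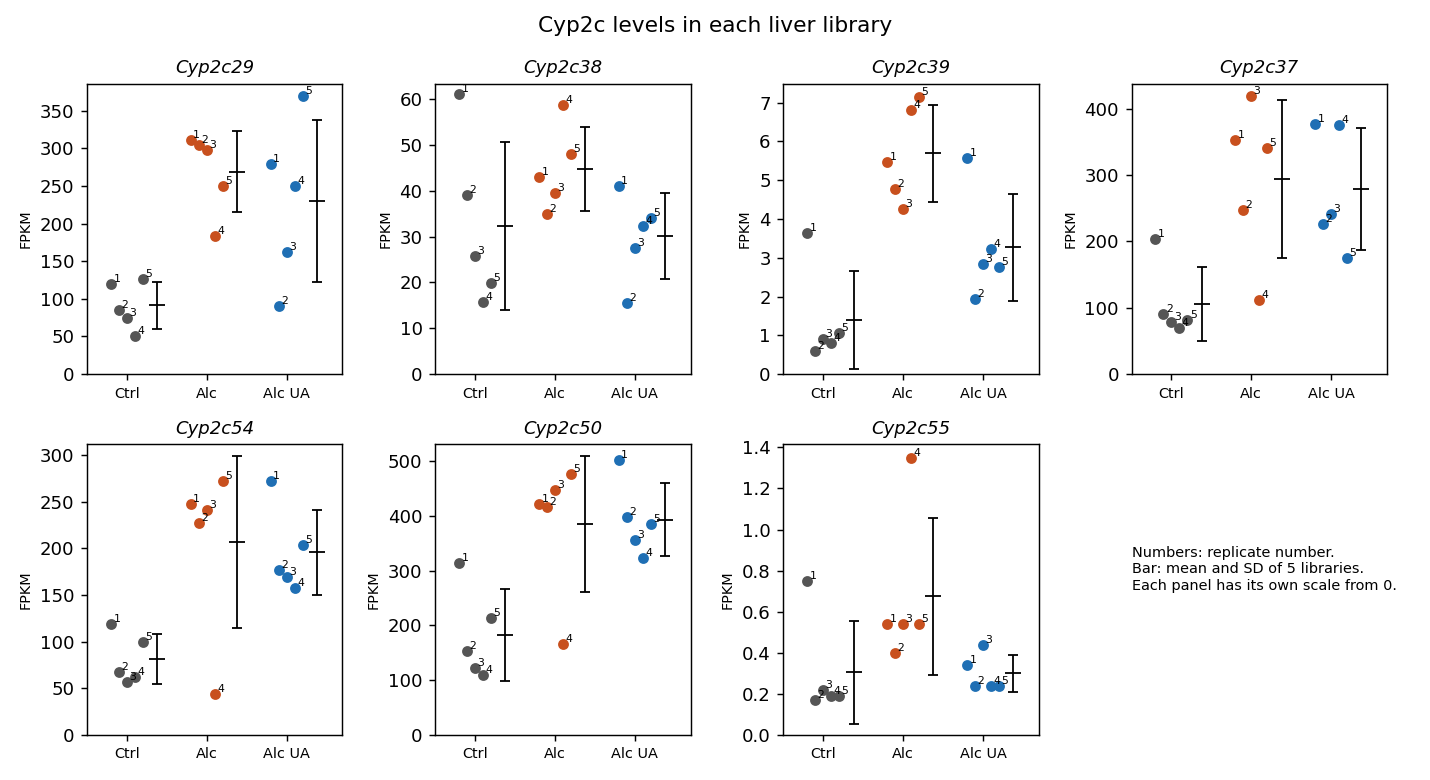
FPKM of each member (vertical axis, from 0, with its own scale per gene) in each library, grouped as Ctrl, Alc and Alc UA; points are libraries numbered by replicate and bars are the mean and SD of 5. Ctrl 1 is the highest control for every member except Cyp2c29, and Alc 4 is the lowest Alc library for Cyp2c29, Cyp2c37, Cyp2c54 and Cyp2c50 and the highest for Cyp2c38 and Cyp2c55.

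**Figure D2:**
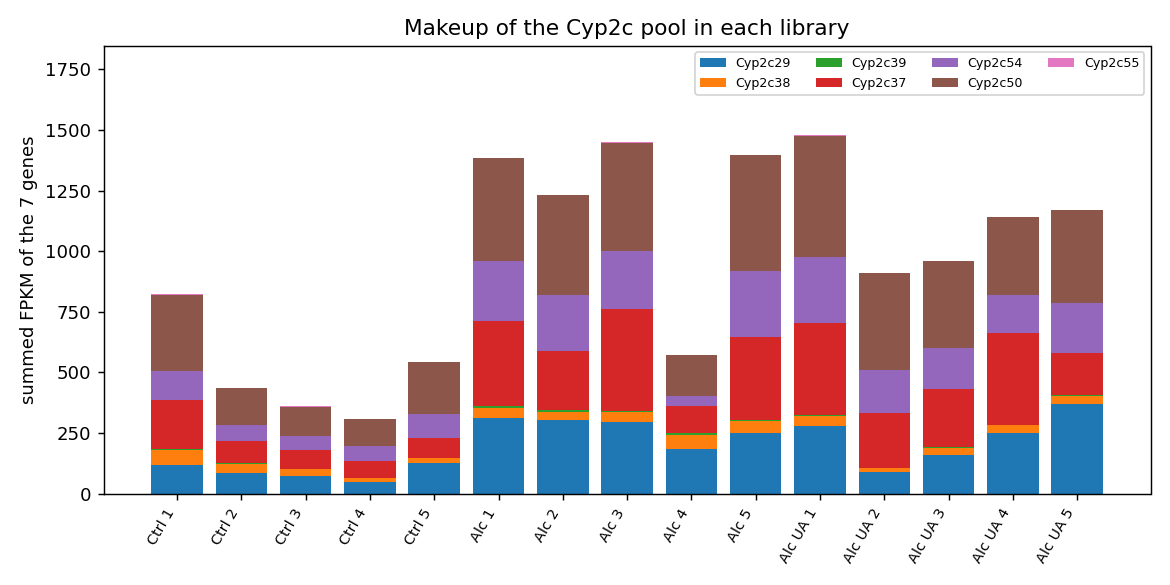
Summed FPKM of the 7 members (vertical axis) in each of the 15 libraries, with 1 colour per gene. The sums run from 307 in Ctrl 4 to 1477 in Alc UA 1, and Alc 4, at 572, is the lowest library on alcohol.

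The comparison of Alc with Ctrl asks how liver transcripts differed on the alcohol diet. A linear model (limma) was fitted to log2(FPKM + 1) of 10959 genes that reached 1 FPKM in 5 or more of the 15 libraries. A log2 fold change below is a difference on that scale, with its SE, and a gene was called at a Benjamini-Hochberg adjusted p under 0.05 over all genes tested. Of the 7 members, 6 were tested. Cyp2c55 was not, and 5 were at 1 FPKM or more in all 15 libraries. Cyp2c39 passed the filter through the alcohol groups, with 2 of 5 Ctrl libraries at 1 FPKM, so a rise was favoured for it. Cyp2c29, Cyp2c37, Cyp2c39, Cyp2c50 and Cyp2c54 rose and 0 members fell (limma; also 0 lower at an unadjusted p under 0.05), where 33.3% of all tested genes were called, 10.6% higher and 22.8% lower. The median log2 fold change was 1.32 over the tested members and -0.12 over all tested genes.

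Within the Cyp2c29, Cyp2c38 and Cyp2c39 set, 2 genes passed the test. Cyp2c29 was at 119, 85.4, 75.05, 49.97 and 126 FPKM in Ctrl and at 312, 304, 297, 183 and 250.1 in Alc. Every Alc library lay above every Ctrl library, which was so in that direction for 6.18% of all tested genes and in either direction for 15.8%. The mean rose from 91.2 ± 31.7 to 269 ± 53.8, a 2.95-fold ratio (log2 fold change 1.60 ± 0.33, limma adjusted p = 0.0025).

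Cyp2c39, the retinoic acid hydroxylase gene, was weakly expressed, at 3.65, 0.59, 0.90, 0.81 and 1.05 FPKM in Ctrl and at 5.48, 4.78, 4.26, 6.82 and 7.14 in Alc. The groups did not overlap, and Ctrl 1 was far above the other controls. The log2 fold change was 1.58 ± 0.26 (limma adjusted p = 6.3e-04), and 1.85 ± 0.19 without Ctrl 1.

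Cyp2c38, the member closest to Cyp2c39 in sequence, was at 61.0, 39.2, 25.7, 15.6 and 19.9 FPKM in Ctrl and at 43.0, 34.8, 39.5, 58.7 and 48.0 in Alc. The groups overlapped, and the highest library of the 10 was Ctrl 1. The log2 fold change of 0.60 ± 0.31 did not pass (95% interval -0.05 to 1.26, limma adjusted p = 0.14). Without Ctrl 1 alone it was 0.87 ± 0.27 and passed (limma adjusted p = 0.027). It did not pass without Ctrl 1 and Ctrl 5 (0.79 ± 0.29, adjusted p = 0.052) or without Ctrl 1 and Alc 4 (0.77 ± 0.28, adjusted p = 0.055). The call was thus made in 1 alternative fit, and over the others the adjusted p ran from 0.052 to 0.34.

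The Cyp2c37, Cyp2c50 and Cyp2c54 set rose with Cyp2c29. Cyp2c37 was at 204, 91.2, 79.3, 68.8 and 82.3 FPKM in Ctrl and at 353, 247, 419, 112 and 342 in Alc. In Alc, 4 of 5 libraries lay above every control, and Alc 4 lay below Ctrl 1 and above the other controls. The ratio of means was 2.80 (log2 fold change 1.47 ± 0.35, limma adjusted p = 0.0062).

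Cyp2c50, the most abundant member, was at 314, 153, 122, 109.6 and 213 FPKM in Ctrl and at 422, 416, 447, 166 and 476 in Alc. Again Alc 4 was the library within the range of the controls. The ratio of means was 2.11 (log2 fold change 1.10 ± 0.30, limma adjusted p = 0.012).

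Cyp2c54 was at 119, 67.0, 56.8, 62.35 and 99.5 FPKM in Ctrl and at 248, 227, 241, 44.2 and 272 in Alc. Alc 4 was below all 5 controls, and the other Alc libraries were above all of them. The ratio of means was 2.55 (log2 fold change 1.17 ± 0.40, limma adjusted p = 0.034). Without Alc 4 the change was 1.66 ± 0.21 (adjusted p = 1.3e-04), while the call was lost on leaving out Alc 1, Alc 2, Alc 3 or Alc 5, or Ctrl 2, Ctrl 3 or Ctrl 4, each alone (adjusted p = 0.069 to 0.090), without the filter, and with the 2 groups alone (adjusted p = 0.060 and 0.067).

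Cyp2c55 was near the lower end of the table, at 0.75, 0.17, 0.22, 0.19 and 0.19 FPKM in Ctrl, at 0.54, 0.40, 0.54, 1.35 and 0.54 in Alc, and at 0.34, 0.24, 0.44, 0.24 and 0.24 in Alc UA. It reached 1 FPKM in Alc 4 alone. In a fit without the filter its log2 fold change in Alc against Ctrl was 0.35 ± 0.13 and did not pass (adjusted p = 0.078), on a scale that compresses changes at such levels. Of 7 intestinal epithelium markers 5 were in the table, with a sum of 270.1 to 437 FPKM in Ctrl and 166 to 224 in Alc (0 rose and 2 fell of 2 tested). Of these 5, 2 were at 1 FPKM or more in every library. The highest value of any 1 marker was 321 FPKM, so few of the markers carried the sum.

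**Figure D3:**
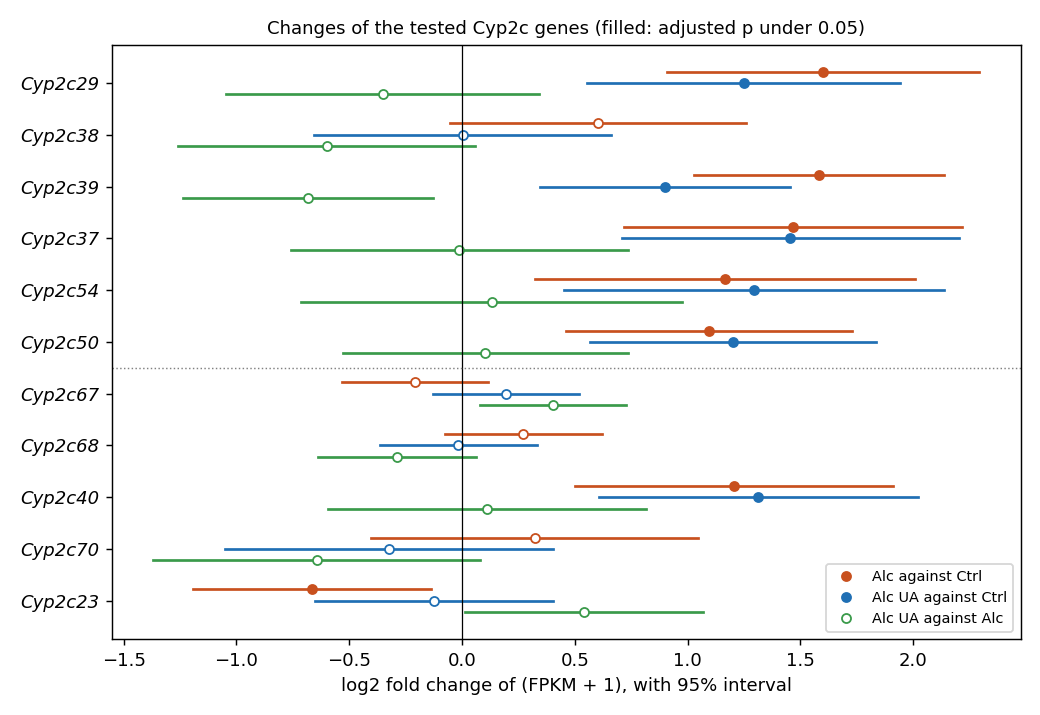
Log2 fold change of log2(FPKM + 1) with its 95% interval (horizontal axis) for the 6 tested members above the dotted line and the 5 other tested Cyp2c genes below it, in 3 comparisons; filled points passed at an adjusted p under 0.05. In both comparisons with Ctrl, 5 members are filled and to the right of 0, and Cyp2c38 is not filled.

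Of 10 other Cyp2c genes listed, 8 were in the table and 5 were tested, of which 1 was higher and 1 lower in Alc (median 0.27), beside 10.6% and 22.8% of all tested genes. Cyp2c67 and Cyp2c68, which stand between Cyp2c39 and Cyp2c37 in the cluster, did not pass. Cyp2c67 was at 139 ± 23.0 FPKM in Ctrl and 119 ± 14.0 in Alc (log2 fold change -0.21 ± 0.15, 95% interval -0.53 to 0.11), and Cyp2c68 at 88.2 ± 10.85 and 107 ± 13.2 (0.27 ± 0.16, -0.08 to 0.62). Cyp2c70, which hydroxylates bile acids into muricholic acids, was at 19.1 ± 13.0 in Ctrl and 21.1 ± 5.49 in Alc (0.32 ± 0.34, adjusted p = 0.49). Cyp2c40 rose by 1.20 ± 0.33 (limma adjusted p = 0.013), from 0.402 ± 0.406 to 2.29 ± 1.08, and passed the filter through the alcohol groups. Its aligned coding bases were identical to those of Cyp2c68 at 98.1%, Cyp2c69 at 97.9% and Cyp2c67 at 97.7%. The division of reads among these genes is therefore uncertain. Cyp2c23 fell by 0.67 ± 0.25 (adjusted p = 0.0497), a call lost in 22 of 28 alternative fits (adjusted p up to 0.15). Its value in Alc 4 was 41.6 FPKM, against 72.2 to 145 in the other Alc libraries. Cyp2c69 stayed at 3.91 FPKM or less, Cyp2c65 at 0.07 or less, and Cyp2c66 was listed at 0 throughout.

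Whether members differed from each other in their change was tested on 8 within-library ratios, each the difference of log2(FPKM + 1) between 2 members in the same library, with an exact two-sided permutation test over all assignments of the 10 libraries to 2 groups of 5, whose smallest p is 0.0079. In Alc against Ctrl 0 of 8 ratios passed after adjustment over the 8, and 3 had an unadjusted p under 0.05. A single ratio at that smallest p has an adjusted p of 0.063, so it could not pass by itself. The count of 0 therefore does not show that the members changed alike. The ratio of Cyp2c38 to Cyp2c39 was 3.20 to 4.66 in Ctrl and 2.59 to 2.95 in Alc, without overlap (means 3.75 and 2.77, exact p = 0.0079, adjusted p = 0.063). The ratio of Cyp2c29 to Cyp2c38 was 1.56 ± 0.65 in Ctrl and 2.56 ± 0.59 in Alc (exact p = 0.040, adjusted p = 0.11). With a pseudocount of 0.01 in place of 1 the Cyp2c38 to Cyp2c39 difference moved from -0.98 to -1.70. If reads were short, the division of reads between Cyp2c38 and Cyp2c39 is also uncertain, as described above. The third, the ratio of Cyp2c29 to Cyp2c55, is set by the pseudocount, because Cyp2c55 is near 0. Its difference of 1.25 with a pseudocount of 1 was 0.37 with 0.01 (exact permutation adjusted p = 0.67), so it does not show that these members changed differently. Without Ctrl 5, which scored -6.04 on the first principal component of all tested genes against -48.4 to -30.2 for the other controls, the ratios of Cyp2c38 to Cyp2c39 and of Cyp2c29 to Cyp2c38 passed (exact permutation adjusted p = 0.042 each), as did the one set by the pseudocount. With 4 against 5 libraries the smallest exact p is 0.016, and a ratio at that value passes only if others are as low. The pass of the first 2 ratios therefore depended on the one set by the pseudocount. The ratios among Cyp2c37, Cyp2c50 and Cyp2c54 gave adjusted p = 0.13 to 0.89 in the same exact test. Alc 4 stood out in the ratio of Cyp2c50 to Cyp2c54, at 1.89 against 0.76 to 0.89 in the other Alc libraries.

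**Figure D4:**
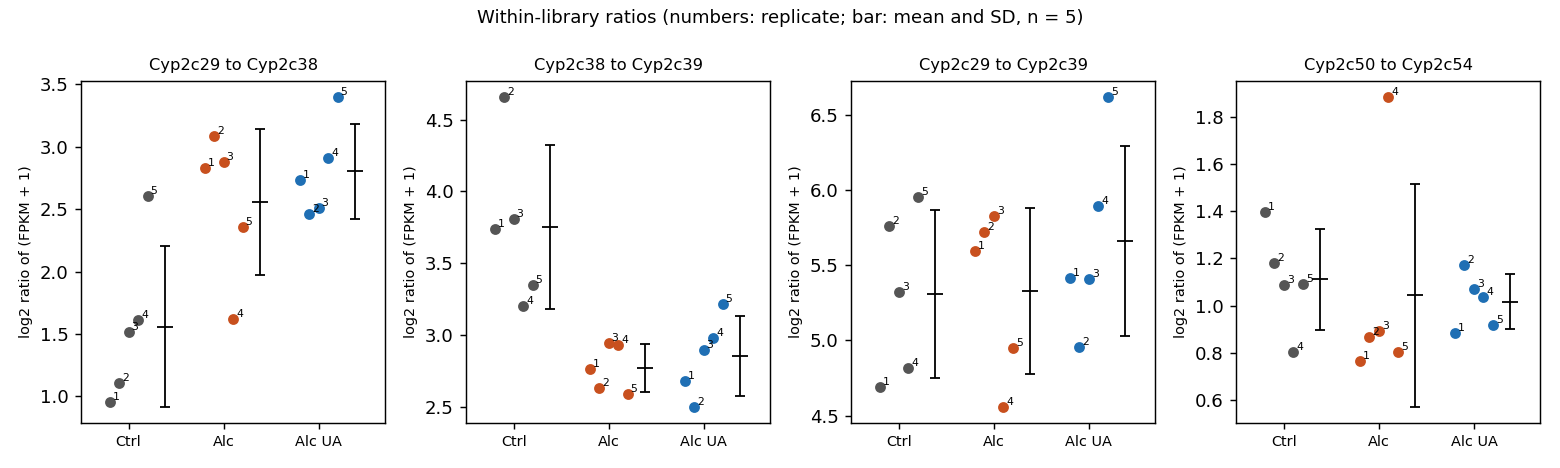
Difference of log2(FPKM + 1) between 2 members of the same library (vertical axis, log2 ratio) for 4 of the 8 ratios, by group; points are libraries numbered by replicate and bars are the mean and SD of 5. The Cyp2c38 to Cyp2c39 ratio of every Alc library is below that of every Ctrl library, and Alc 4 is apart from the other Alc libraries in the Cyp2c50 to Cyp2c54 ratio.

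Adding UA to the alcohol diet was compared as Alc UA with Alc. Of the 6 tested members 0 passed (limma), 1 had an unadjusted p under 0.05, and 0.00912% of all tested genes were called, which is 1 gene. Cyp2c39 was at 5.57, 1.94, 2.83, 3.22 and 2.77 FPKM in Alc UA, and 4 of the 5 lay below every Alc library. Its log2 fold change was -0.68 ± 0.26 (95% interval -1.24 to -0.13, limma adjusted p = 0.79). Cyp2c38 was at 41.1, 15.6, 27.5, 32.35 and 34.1 FPKM in Alc UA, also below every Alc library in 4 of 5 (-0.60 ± 0.31, 95% interval -1.26 to 0.06). Cyp2c55, near the lower end of the table and outside the filter, was likewise below every Alc library in 4 of 5. In the fit without the filter its log2 fold change was -0.34 ± 0.13 (limma adjusted p = 0.97). Groups did not overlap at all, in either direction, for 1.18% of all tested genes. No such share is given here for 4 of 5 libraries.

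Cyp2c29 was spread widely in Alc UA, at 279.5, 90.4, 162, 249.8 and 369.9 FPKM. It reached both below and above the range in Alc, with a log2 fold change of -0.35 ± 0.33 (95% interval -1.04 to 0.34). For Cyp2c37, at 376, 227, 241, 376 and 174 FPKM in Alc UA, it was -0.01 ± 0.35 (-0.76 to 0.74). For Cyp2c50, at 503, 398, 357, 324 and 385, it was 0.10 ± 0.30 (-0.53 to 0.74), and for Cyp2c54, at 272, 176, 169, 158 and 204, it was 0.13 ± 0.40 (-0.71 to 0.97). These intervals leave room for changes of either sign. Without Alc 4 the last 3 became -0.33 ± 0.30, -0.18 ± 0.24 and -0.36 ± 0.21, none of which passed (adjusted p of 0.99 each).

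The comparison of Alc UA with Ctrl uses the same Ctrl libraries as that of Alc with Ctrl, so its values stand beside the earlier ones and do not check them. The genes that passed were again Cyp2c29 (log2 fold change 1.25 ± 0.33, limma adjusted p = 0.0070), Cyp2c37 (1.46 ± 0.35, 0.0045), Cyp2c39 (0.90 ± 0.26, 0.012), Cyp2c50 (1.20 ± 0.30, 0.0053) and Cyp2c54 (1.30 ± 0.40, 0.017), where 42.6% of all tested genes were called, 10.5% higher. Cyp2c50 and Cyp2c54 of every Alc UA library lay above every Ctrl library, which was so in that direction for 5.48% of all tested genes and in either direction for 20.2%. Cyp2c38 had means of 30.1 ± 9.48 FPKM in Alc UA and 32.3 ± 18.4 in Ctrl (0.00 ± 0.31, 95% interval -0.65 to 0.66). The ratio of Cyp2c38 to Cyp2c39 was 2.86 ± 0.28 in Alc UA and 3.75 ± 0.57 in Ctrl (exact permutation p = 0.016, adjusted p = 0.063), and 0 of 8 ratios passed, with 3 at an unadjusted p under 0.05, the Cyp2c29 to Cyp2c55 ratio among them. The limit given above, that a single ratio cannot pass by itself, holds here too.

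In 15 genes of electron supply and heme synthesis, which P450 enzymes need, 4 rose and 0 fell in Alc against Ctrl (median 0.13). At an unadjusted limma p under 0.05, 2 were lower. Of all tested genes 10.6% were called higher and 22.8% lower in that comparison. Por, the P450 reductase gene, was at 88.9 to 156 FPKM in Ctrl and 245 to 343 in Alc (log2 fold change 1.27 ± 0.15, limma adjusted p = 6.2e-05). Alas1, the rate-limiting enzyme of heme synthesis, rose by 0.96 ± 0.17 (limma adjusted p = 8.3e-04). Fech, which inserts iron in the last step of that synthesis, rose by 0.56 ± 0.10 (limma adjusted p = 0.0012). In Alc UA against Ctrl, where 10.5% of all tested genes were higher and 32.1% lower, 3 of the 15 rose and 4 fell, and in Alc UA against Alc 0 passed, with 3 at an unadjusted p under 0.05.

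Among 29 transcription factors of hepatic P450 genes 28 were tested. In Alc against Ctrl 9 rose and 2 fell (median 0.06), beside 10.6% higher and 22.8% lower of all tested genes. Nr1i3, which encodes CAR, was at 98.8 to 218 FPKM in Ctrl and 191 to 233 in Alc (log2 fold change 0.55 ± 0.18, limma adjusted p = 0.031), and Nr1i2, which encodes PXR, changed by 0.39 ± 0.15 (adjusted p = 0.049). These calls were lost in 9 and 16 of 28 alternative fits (adjusted p up to 0.083 and 0.12). Their partner Rxra rose by 0.53 ± 0.11 (adjusted p = 0.0022). Hnf4a did not pass, at 113 ± 23.3 FPKM in Ctrl and 110.1 ± 19.0 in Alc (-0.03 ± 0.16).

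Dbp, Tef and Hlf, named for their small p within that list, encode related factors driven by the circadian clock. Dbp was at 3.09 to 6.65 FPKM in Ctrl, 62.9 to 126 in Alc and 57.9 to 94.0 in Alc UA, and Tef and Hlf rose by 1.76 ± 0.15 and 0.80 ± 0.10 in Alc against Ctrl (limma adjusted p = 2.1e-06 and 6.9e-05). Per3, a clock repressor gene outside the list, was at 0.56 to 1.18 FPKM in Ctrl and 6.83 to 15.25 in Alc. The part of the clock in the Cyp2c values was not tested.

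Genes listed as responsive to CAR and PXR outside Cyp2c numbered 35, of which 27 were tested. In Alc against Ctrl 12 rose and 0 fell (median 0.63), beside 10.6% higher and 22.8% lower of all tested genes. At an unadjusted limma p under 0.05, 1 was lower. Cyp2b9 was at 0.06 to 6.19 FPKM in Ctrl and 59.3 to 255 in Alc. It passed the filter through the alcohol groups, with 1 of 5 Ctrl libraries at 1 FPKM. The glutathione transferase gene Gstt3 was at 7.46 to 18.1 FPKM in Ctrl and 45.85 to 66.6 in Alc. The bilirubin glucuronosyltransferase gene Ugt1a1 was at 49.6 to 126 and 226 to 288. Cyp2b10, the usual readout of CAR, did not reach the filter, at 0 to 0.26 FPKM in Ctrl, 0.08 to 1.98 in Alc and 0.03 to 0.33 in Alc UA. Without the filter it was called higher in Alc against Ctrl (log2 fold change 0.73 ± 0.20, limma adjusted p = 0.022). The list includes Por and Alas1, described above. In Alc UA against Alc 0 of the 27 passed, with 8 at an unadjusted p under 0.05. Cyp2b9 was at 1.13 to 47.5 FPKM in Alc UA, below every Alc library (log2 fold change -3.56 ± 0.75, limma adjusted p = 0.23). Of all tested genes, 1.18% had no overlap, in either direction, in that comparison.

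Of 26 other genes of arachidonate and epoxide metabolism 21 were tested, and 0 rose and 6 fell in Alc against Ctrl, a share lower that is near the 22.8% of all tested genes (2 higher at an unadjusted limma p under 0.05; median -0.26). Ephx2, the soluble epoxide hydrolase that breaks down epoxyeicosanoids, was at 759 to 1081 FPKM in Ctrl and 581 to 718 in Alc, without overlap (log2 fold change -0.50 ± 0.11, limma adjusted p = 0.0034), a call lost with median-of-ratios size factors (adjusted p = 0.078). Cyp2j9, a P450 gene of the epoxygenase subfamily CYP2J, fell by 1.53 ± 0.35, and the omega-hydroxylase gene Cyp4a12a fell by 1.10 ± 0.23 (adjusted p = 0.0045 and 0.0025). In Alc UA against Ctrl 1 of the 21 rose and 3 fell, beside the 10.5% and 32.1% of all tested genes.

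Zonation was read from genes outside Cyp2c. Of 21 pericentral genes tested, 9 rose and 2 fell in Alc against Ctrl (median 0.34), and of 18 periportal genes 2 rose and 2 fell (median -0.10). Of all tested genes 10.6% were called higher and 22.8% lower, so the periportal share higher was near that of all genes. Cyp2e1, the ethanol-inducible P450, rose by 1.04 ± 0.18 and the glutamate transporter gene Slc1a2 rose by 1.11 ± 0.25, while the Wnt target genes Axin2 and Tbx3 fell by 0.62 ± 0.17 and 0.88 ± 0.20 (limma adjusted p = 8.8e-04, 0.0045, 0.012 and 0.0043). In bulk liver, fewer cells of a type and less RNA per cell cannot be told apart. Hepatocyte markers, 7 of 8 in the table and all above 1 FPKM in every library, summed to 38586 to 60323 FPKM in Ctrl and 52161 to 66414 in Alc. They include Cyp2e1, and of the 7 tested 2 were called higher and 2 lower in Alc against Ctrl. Sinusoidal endothelial markers, 10 of 10 in the table, summed to 147 to 426 FPKM in Ctrl and 62.9 to 144 in Alc. Erythroid markers, 5 of 5, summed to 1431 to 8800 in Ctrl and 576 to 988 in Alc. The part of such differences in the Cyp2c values was not tested.

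The profiles of the members over the 15 libraries were set against those of all tested genes outside the Cyp2c family, with likeness measured as the root mean square difference in log2 units after centring each profile on its mean. Nearest to Cyp2c29 were Car5a, a mitochondrial carbonic anhydrase gene, and Akr1d1, a bile acid synthesis gene (0.38 and 0.41). Nearest to Cyp2c50 was Slc1a2 (0.27), followed by Gpld1 (0.38), and nearest to Cyp2c37 were Prodh, a proline oxidase gene, and Slc1a2 (both 0.42). Cyp2c39 had Cyp3a59 and Akr1d1 (both 0.33), and Cyp2c38 had the glutathione transferase gene Gsta3 and Tmem14a (0.31 and 0.34). Cyp2c54 had Mup18 and Mup9 (0.46 and 0.47), 2 genes of a family whose near-identical members can share reads, and both were low in Alc 4, at 1157 and 870.05 FPKM against 2955 to 3227 and 2225 to 4127 in the other Alc libraries.

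Between members, the closest profiles were those of Cyp2c50 and Cyp2c54 (0.28), Cyp2c37 and Cyp2c50 (0.37) and Cyp2c37 and Cyp2c54 (0.43). Cyp2c38 lay farther from its close relative Cyp2c39 (0.56) than those 3 genes did from each other, and farthest from Cyp2c54 (0.96). The division of reads among those 3 genes is uncertain, as described above, and Cyp2c39 was weakly expressed. The part of either in these distances was not tested. Cyp2c29 was 0.53 from Cyp2c50, 0.54 from Cyp2c39 and 0.73 from Cyp2c38.

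**Figure D5:**
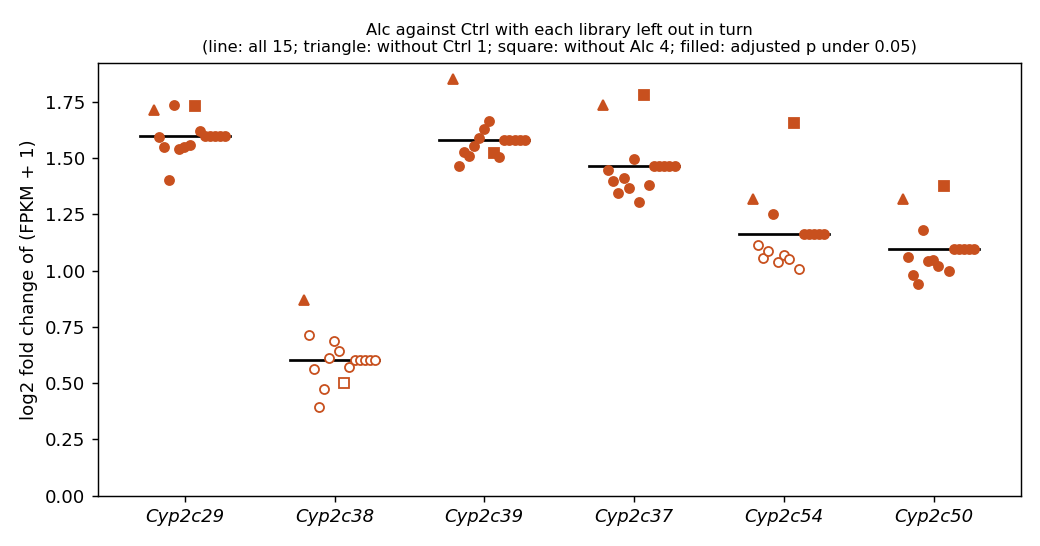
Log2 fold change of Alc against Ctrl (vertical axis, from 0) for the 6 tested members with each of the 15 libraries left out in turn; lines are the values from all 15, triangles are without Ctrl 1, squares without Alc 4, and filled points passed at an adjusted p under 0.05. All points are above 0, Cyp2c38 is filled only without Ctrl 1, and Cyp2c54 is open for 7 of the libraries left out.

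Ctrl 1 and Alc 4 recurred as the libraries apart from their groups. They also had the highest scores of the 15 on the second principal component of all tested genes, at 23.2 and 25.1. Without both, a choice made after seeing the data, the log2 fold changes in Alc against Ctrl were 1.85 ± 0.36 for Cyp2c29, 2.05 ± 0.23 for Cyp2c37, 1.79 ± 0.20 for Cyp2c39, 1.60 ± 0.18 for Cyp2c50 and 1.81 ± 0.18 for Cyp2c54 (limma adjusted p = 4.9e-05 to 0.0029), and Cyp2c38 did not pass (0.77 ± 0.28, adjusted p = 0.055).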

How the data were processed

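Messenger RNA was measured in 15 mouse livers. Per the labels' protocols, total RNA came from a phenol-chloroform extraction, and libraries followed an MGISEQ protocol. The authors deposited FPKM values, 18510 rows named by gene symbol, with 2 decimals. The submitters' processing notes list RSEM 1.2.8, StringTie, HISAT2 2.1.0, DESeq and Bowtie2 2.2.5, with no role for any. The sources used here do not state genome build, annotation or strand use. Columns were matched to libraries by group letter and replicate number.

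FPKM values are not counts, and the smallest value above 0 was 0.01 in every library, too coarse to give relative depth, so the number of reads is unknown. Library sums were 551153 to 668832 FPKM, and 10119 to 11471 genes reached 1 FPKM. Limma 3.58.1 in R 4.3.3 was fitted to log2(FPKM + 1) over the 3 groups with a variance prior that follows mean level and 12 residual degrees of freedom, and tested on simulated data with known changes. Nothing in the labels says that mice were housed or collected separately, so p-values measure the spread between these libraries.

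Named genes were the members, the other Cyp2c genes, at most 5 of each of 7 context lists, by smallest p in Alc against Ctrl, Nr1i2, Nr1i3, Hnf4a, Por, Ephx2, Cyp2b10, Dbp and Per3, and the 2 nearest profiles of each member; a part is printed. The members, lists and tests were chosen with earlier results of these data known. Ratios were tested with scipy 1.17.1. Alternatives covered pseudocount, filter, scaling, variance prior, library weights, the libraries fitted and the replicate number as a block. Coding identity came from GENCODE M21 transcripts, aligned with Biopython 1.88.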

Additional observations from a re-analysis of the deposited data

Results flagged for a closer look

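A library lay far from the other 4 of its group, by Dixon's gap-to-range ratio above 0.71, in 8 of 42 gene and group combinations of the Cyp2c family. Chance gives about 1 in 20 for independent, normally distributed values. These combinations are not independent, because the same libraries recur over genes, so the count was not tested against that share. The members accounted for 6 of the 8, each in Ctrl 1 or Alc 4.

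Ctrl 1 was the highest control for Cyp2c37 (204 FPKM, others 68.8 to 91.2), Cyp2c39 (3.65, others 0.59 to 1.05) and Cyp2c55 (0.75, others 0.17 to 0.22). Alc 4 was the lowest Alc library for Cyp2c50 (166 FPKM, others 416 to 476) and Cyp2c54 (44.2, others 227 to 272) and the highest for Cyp2c55 (1.35, others 0.40 to 0.54). Among the other genes of the family, Cyp2c69 was highest in Ctrl 5 (1.11 FPKM, others 0.14 to 0.41) and in Alc 1 (2.47, others 0.54 to 0.73).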

How the results depend on the processing

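The count of members higher in Alc against Ctrl was 5, and 4 to 6 with each library left out in turn. In Alc UA against Ctrl it was 5 in each of those fits, and over the other 13 alternatives it was 4 to 5 in both comparisons. In Alc UA against Alc it was 0 in every alternative run. The count of ratios that passed in Alc against Ctrl, 0, was 0 to 3 with each library left out. Of the 3, without Ctrl 5, 1 is the Cyp2c29 to Cyp2c55 ratio that the pseudocount sets, and the others passed only together with it. With a filter of 5 FPKM Cyp2c39 was not tested. The median of all genes in Alc against Ctrl, -0.12, was -0.0019 after quantile normalization, -0.0063 after scaling to equal sums, and 0.02 with median-of-ratios size factors. The same 5 members passed under each, with log2 fold changes of 1.19 to 1.77. All genes called numbered 1157 higher and 2497 lower, against 2049 and 2024, 1602 and 1294, and 2206 and 1672 under those scalings in that order, and 1821 and 4049 with library weights. In Alc UA against Ctrl they were 1152 and 3521, against 2420 and 2430, 1310 and 2540, and 2738 and 2022 under the same scalings, and the lower count was 2311 with the filter of 5 FPKM.

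The labels do not say whether replicate numbers pair the libraries. The deviations of same-numbered libraries correlated across genes at -0.30 to 0.29, which shows no common pairing but cannot exclude it for single genes. With the replicate block 5 members were higher in each comparison with Ctrl, 0 passed in Alc UA against Alc, and 0 ratios passed, where 5 pairs allow no exact p under 0.0625. Depth is unknown, which limits what can be said of Cyp2c39 and Cyp2c55.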
